A study of Homo sapiens with 40 samples.

Results

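EGF was compared with vehicle at 12 h in 2 HER2-positive breast cancer lines, and the difference between the 2 responses was tested for every gene. BT474 is a luminal line with an amplified ERBB2 gene that responds to the HER2 antibody trastuzumab, and BT474R is a resistant derivative of it, grown out from 1 clone in the presence of the antibody. The comparison used 8 of the 40 RNA sequencing libraries of the series, chosen by line, treatment and time point: BT474 given vehicle (S12_Con) or EGF (S12_EGF) and BT474R given vehicle (R12_Con) or EGF (R12_EGF), with 2 libraries in each group. All cells had been kept in a starvation medium with little serum before the ligand or water was added in fresh medium of that kind. The deposited value of a gene is the number of reads counted on it. Since BT474R is 1 clone, resistance and other features of that clone cannot be told apart here, and the 2 replicates of a group are known only as duplicates, so the p-values measure the spread between these libraries. In bulk RNA, a lower level in every cell and a smaller share of cells that express a gene cannot be told apart either.

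EGF binds the receptor EGFR, which pairs with itself or with ERBB2 (HER2), ERBB3 or ERBB4 and signals through the RAS, RAF, MEK and ERK kinases and through PI3K and AKT. The first genes to respond are the immediate early transcription factors such as FOS and EGR1, whose RNA is short-lived, together with phosphatases and adaptor proteins that damp the signal. In epithelial cells, later responses include genes of DNA replication, of the cytoskeleton and of adhesion. Luminal breast cells hold their identity through GATA3, the estrogen receptor and related regulators, and ERK signalling is known to lower the estrogen receptor.

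The 8 libraries held between 20662109 and 30024539 counts, and 3 counts, taken as the detection limit, were at most 0.144 CPM, the count of a gene scaled to a common library total, a limit for counting error only. Replicates differed by more than counting noise, with median chi-square values between 0.613 and 0.845 against 0.455 from counting alone, and the common dispersion was 0.0012 in BT474 and 0.00289 in BT474R. The 13 luminal breast epithelial markers had a summed level between 15900 and 21000 CPM, and all but TFAP2B lay above this limit in all 8 libraries. TFAP2B was at 0.793 to 1.34 CPM in BT474 and at 0.0887 CPM or less in BT474R, under the limit. The markers of basal cells summed to between 4.08 and 17.4 CPM, of endothelial cells to between 12.8 and 23.3 CPM and of leukocytes to between 2.44 and 5.29 CPM, and CNN1, FAP and CD3D were at 0 in all 8 libraries. Of the 9 fibroblast markers, 8 were at or under 1 CPM in all 8 libraries, and COL1A1 alone was at 80.8 to 198 CPM. The basal sum was higher with EGF than with vehicle in both lines, at 14.3 and 17.4 against 6.59 and 8.52 CPM in BT474 and at 7.76 and 8.64 against 4.08 and 4.71 CPM in BT474R. In BT474R the endothelial sum was also higher with EGF, at 19.1 and 23.3 against 12.8 and 13.7 CPM. So was the leukocyte sum, at 3.88 and 3.97 against 2.44 and 2.59 CPM, while in BT474 both overlapped. In BT474R, CDH5 went from 1.91 and 2.86 to 6.36 and 6.64 CPM, VWF from 10.4 and 10.2 to 11.9 and 15.8 CPM and CD68 from 1.86 and 1.7 to 3.06 and 2.99 CPM. Of the 7 endothelial markers 5, and of the 12 leukocyte markers 10, were at or under 1 CPM in all 8 libraries. The luminal sum was higher with EGF as well, from 15900 and 16000 to 17600 and 17700 CPM in BT474 and from 17900 and 18100 to 20700 and 21000 CPM in BT474R. The part of these markers in the results was not tested.

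For each gene, the EGF effect in a line is the log2 ratio of EGF over vehicle, and the difference of EGF effects is the effect in BT474R minus the effect in BT474. A gene is called here when its p was under 0.05 in the quasi-likelihood test of edgeR, adjusted by Benjamini-Hochberg over the 24641 genes of the fit. The difference was called for 484 genes (1.96%), 229 of them higher in BT474R (0.929%) and 255 lower (1.03%), and 2759 genes had an unadjusted p under 0.05. EGF itself changed 3337 genes (13.5%) in BT474, 8.64% up and 4.91% down, and 3661 (14.9%) in BT474R, 8.4% up and 6.46% down. Which line had more called genes depended on the analysis. With limma and a variance factor per line, 3766 genes were called in BT474 and 3385 in BT474R. The other analyses with no library left out had more in BT474R. Genes of interferon response and antigen presentation, a list of which 175 members were tested, made up 49 of the 484 genes, and the other 435 genes, 182 higher and 253 lower, are the main subject below. The median absolute log2 difference of these 435 was 0.511. Some rows repeat another row's name with a number added, and 28 of the 484 were such copy rows. They were matched to the interferon list by their full name, so copies of listed genes count among the 435. TAP1_6, a copy row of the antigen presentation gene TAP1, is one of them. With copy rows summed, 375 genes outside the list were called, 173 higher and 202 lower.

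Most of the 435 genes were called in 1 line only. Among the 182 with a higher difference, 88 rose with EGF in BT474R and were not called in BT474, 53 rose in both lines and rose further in BT474R, and 28 fell in BT474 and were not called in BT474R. Among the 253 with a lower difference, 96 fell in BT474R and were not called in BT474, 86 rose in BT474 and were not called in BT474R, 31 fell in both lines, and 25 rose in both lines but less in BT474R. Another 22 of the 435 genes went in opposite called directions in the 2 lines, 8 of them up and 14 down in BT474R. The remaining 6 genes were 3 that fell in both lines, less in BT474R, and 3 called in neither line. The difference is one of ratios, and it can turn where the lines start from unlike levels. The difference of the changes in CPM had the same direction as the log2 difference for 175 of the 182 genes (96.2%) and 231 of the 253 (91.3%), and the members for which it did not are named as such below where they are described. The vehicle level was higher in BT474 for 104 of the 182 (57.1%) and 101 of the 253 (39.9%), against 52.5% of all genes tested. The count itself rested on having both libraries of each group. All 484 genes kept their direction when any of the 8 libraries was left out, but the number called was then between 258 and 325. It was 258 without replicate 1 of R12_EGF, 299 without replicate 2 of it, 299 without replicate 2 and 325 without replicate 1 of R12_Con, 287 without replicate 2 and 324 without replicate 1 of S12_EGF, and 316 and 311 without replicates 1 and 2 of S12_Con. A total of 175 genes kept their call in all 8 of these fits. The balance of higher and lower genes outside the interferon list moved with the libraries as well, from 182 against 253 to 148 against 111 without replicate 2 of R12_Con and to 102 against 184 without replicate 1 of S12_EGF, and it was 281 against 255 with no filter on low counts.

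**Figure D1:**
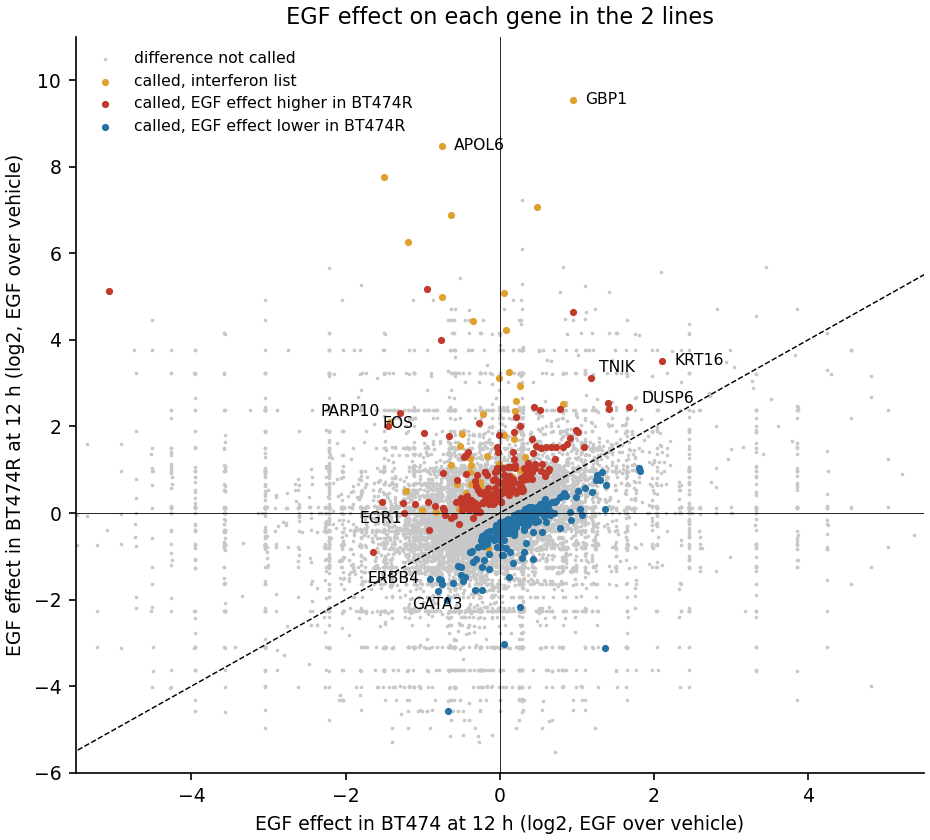
EGF effect in BT474 (x axis) and in BT474R (y axis) at 12 h, as log2 of EGF over vehicle, with 1 point per gene tested and equal effects on the dashed line. Red and blue points are called differences outside the interferon list (182 higher and 253 lower in BT474R), orange points are the 49 called genes of the interferon list, and 1 gene that was not called lies outside the axes; the lines of grey points far from 0 are genes with few counts.

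Of the 4 ERBB receptors, EGFR stood apart between the lines in level and ERBB4 in its response. EGFR, the receptor of EGF, was at 92.9 and 89.6 CPM with vehicle and 91.7 and 103 CPM with EGF in BT474, and at 699 and 818 CPM with vehicle and 827 and 786 CPM with EGF in BT474R. It was called with EGF in neither line, with effects of 0.089 and 0.087, although its vehicle level in BT474R was far above that in BT474. ERBB2 had effects of 0.026 and 0.12, of which the second was called (adjusted p = 0.0276), and a difference of 0.093 (SE 0.054). ERBB3 fell in both lines, with effects of -0.16 and -0.15 and a difference of 0.011 (SE 0.07). ERBB4, which binds neuregulins, was the 1 member of the 4 with a called difference. It was at 39.5 and 37.8 CPM with vehicle and 20.8 and 20.6 CPM with EGF in BT474, and at 12.6 and 12.6 CPM with vehicle and 4.63 and 4.02 CPM with EGF in BT474R, so that the groups did not overlap in either line, and its effect was -0.90 in BT474 and -1.53 in BT474R (difference -0.63, SE 0.14). In CPM its fall was larger in BT474, where it started higher, and the call was lost without replicate 2 of R12_Con, at -0.60, and without replicate 2 of R12_EGF, at -0.53. None of the 10 ERBB ligands tested was called by edgeR or by DESeq2 (2 had an unadjusted p under 0.05), and their median difference was -0.061. In some of the other analyses 1 ligand was called higher.

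Immediate early transcription factors were the list outside interferon with the largest share of called members. Of its 31 tested members 10 were higher in BT474R (32.3%, against 0.929% of all genes) and none was lower, and the median difference was 0.313 against -0.0203 over all genes. EGF raised 7 of them and lowered 3 in BT474 at 12 h, and raised 17 and lowered 2 in BT474R. Over all genes it raised 8.64% and lowered 4.91% in BT474, and raised 8.4% and lowered 6.46% in BT474R. The number higher was between 8 and 11 under the 10 other analyses and between 5 and 10 with a library left out, lowest without replicate 1 of R12_EGF. FOS, which forms the AP-1 dimer with JUN proteins, was at 4.21 and 3.32 CPM with vehicle and 1.89 and 1.92 CPM with EGF in BT474, and at 1.02 and 1.88 CPM with vehicle and 6.4 and 4.35 CPM with EGF in BT474R. FOS moved in opposite directions in the 2 lines, being lower with EGF in BT474 and higher with EGF in BT474R with no overlap. The lines changed order, since FOS was higher in BT474 with vehicle and higher in BT474R with EGF. The difference was 2.85, SE 0.42, adjusted p = 2.73e-05 by the quasi-likelihood test. EGR1, a zinc finger factor induced by ERK through serum response factor, was at 33.8 and 33.2 CPM with vehicle and 15.4 and 15.9 CPM with EGF in BT474, and at 6.43 and 5.66 CPM with vehicle and 8.05 and 5.61 CPM with EGF in BT474R. Its EGF libraries in BT474 lay below the vehicle libraries, and in BT474R the groups overlapped, so that the difference of 1.30, SE 0.24, adjusted p = 0.000997 came with an effect of -1.10 in BT474 and 0.20 in BT474R. The call of EGR1 was lost without replicate 1 of R12_EGF, at 1.01.

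The promoter of EGR1 is shown because it holds the binding element of serum response factor that links this gene to ERK. The sequence is from RefSeq (GRCh38.p14, chr5:138465349-138465478, plus strand), the 130 bases before the gene's start, and capitals mark the matches to the CArG box, searched on both strands.
EGR1: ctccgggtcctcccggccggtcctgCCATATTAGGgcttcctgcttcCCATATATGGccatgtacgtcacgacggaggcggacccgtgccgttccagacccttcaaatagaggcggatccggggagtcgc
A CArG box was found in the 250 bases before the start of 1.44% of the 27305 genes with a promoter in the table, and in 3 of the 24 immediate early factors matched to it, EGR1, EGR2 and SRF, of which EGR1 was called. Among the other 7 called members matched, none held these letters in this window.

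MYC, which drives growth and ribosome genes, was at 33.3 and 31.7 CPM with vehicle and 38.6 and 39.7 CPM with EGF in BT474, and at 2.53 and 3.1 CPM with vehicle and 12.1 and 11 CPM with EGF in BT474R. Its level with vehicle was far lower in BT474R, and EGF raised it there to between 11 and 12.1 CPM, still below every BT474 library. The effect was 0.27 in BT474 and 2.02 in BT474R (difference 1.75, SE 0.17), a rise to 4.06 times the vehicle level in BT474R, and the call held in all 8 fits with a library left out. JUNB, a partner of FOS, was at 89.6 and 92.5 CPM with vehicle and 94.1 and 97.2 CPM with EGF in BT474, and at 69.5 and 69.3 CPM with vehicle and 108 and 103 CPM with EGF in BT474R, and its groups overlapped in neither line. JUNB rose only in BT474R by the test, with effects of 0.07 and 0.61 (difference 0.54, SE 0.12). JUN, IER2, KLF6 and NR4A2 showed the same arrangement, with effects near 0 in BT474 (-0.03, 0.0092, 0.15 and -0.0099) that were not called, and rises of 0.43, 0.48, 0.58 and 0.72 in BT474R. KLF2 rose in both lines, by 0.87 and 1.59. FOSL2, another FOS family member, fell by 0.35 in BT474 and was not called in BT474R (0.14). Of the 10 factors, FOS, MYC, IER2 and KLF2 kept their call whichever library was left out.

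**Figure D2:**
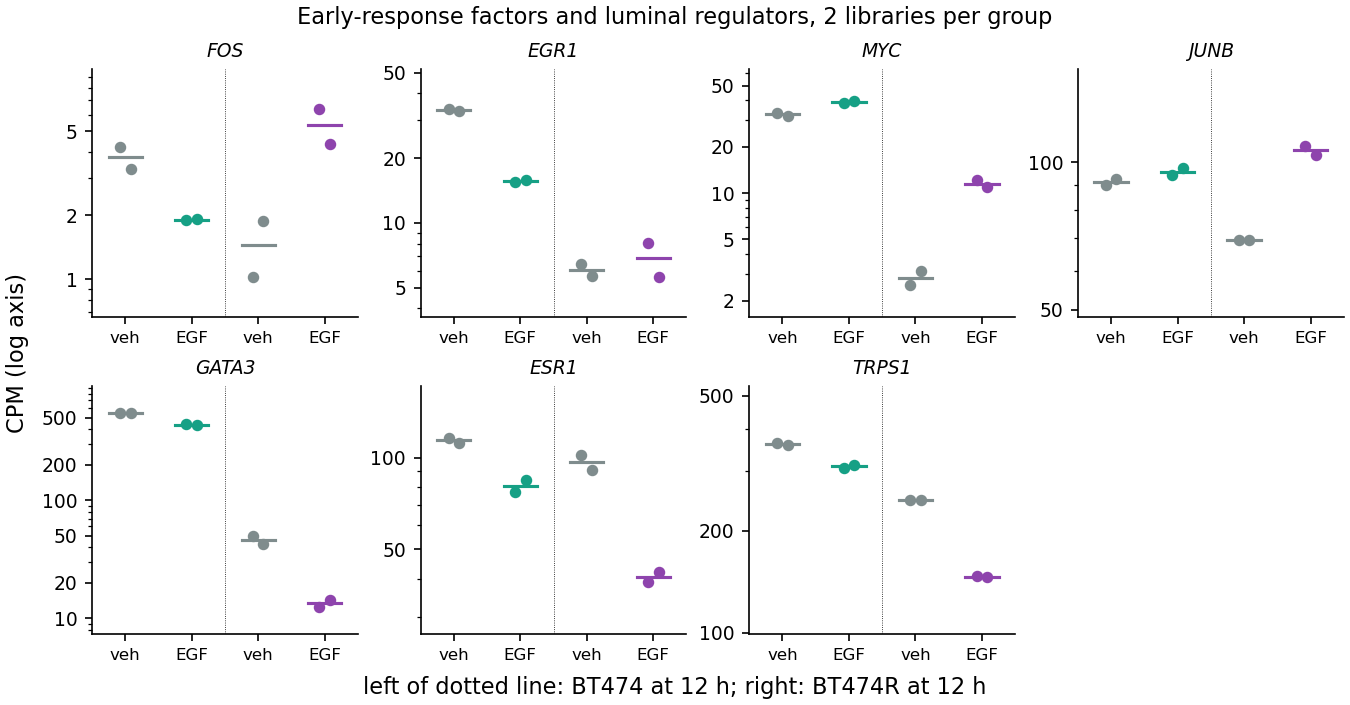
Level in CPM (log axis) of 4 early-response factors (upper row) and 3 luminal regulators (lower row) at 12 h, with 1 point per library and a bar at the mean of the 2 libraries of a group; veh is vehicle. FOS rose from 1.02 and 1.88 to 6.4 and 4.35 CPM in BT474R and fell in BT474, whereas the 3 luminal regulators fell in both lines, further in BT474R.

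Genes that damp the receptor and the MAP kinases went in both directions. Of 39 tested, 3 were higher in BT474R (7.69%, against 0.929% of all genes), DUSP6, ERRFI1 and PHLDA1, and 1 was lower (2.56%, against 1.03%), DUSP4. DUSP6, a phosphatase of ERK, was at 41.3 and 38.3 CPM with vehicle and 127 and 127 CPM with EGF in BT474, and at 93.7 and 96.1 CPM with vehicle and 522 and 508 CPM with EGF in BT474R, with no overlap in either line, and EGF raised it to 3.2 times the vehicle level in BT474 and 5.43 times in BT474R (difference 0.76, SE 0.13, adjusted p = 0.000214). ERRFI1, an inhibitor that binds EGFR and ERBB2, rose by 0.55 and 1.14 (difference 0.59, SE 0.11). DUSP4, a nuclear phosphatase of the same family, rose more in BT474, by 0.84 against 0.47 (difference -0.37, SE 0.073). In CPM the rise of DUSP4 was larger in BT474R, from 1304 and 1374 to 1838 and 1868 CPM against a rise from 469 and 482 to 851 and 848 CPM in BT474, and its call was lost without 1 of the 8 libraries, replicate 2 of R12_Con. PHLDA1 had a difference of 0.96, SE 0.25, which was 0.69 without replicate 1 of R12_EGF, and lost its call in 6 of the 8 fits.

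IRS1 and IRS2, adaptors of the insulin receptor, had a larger EGF effect in BT474R. The list of PI3K, FOXO and insulin receptor signalling held 48 tested members, of which 4 were higher (8.33%, against 0.929% of all genes) and 1 was lower (2.08%, against 1.03%), with a median difference of 0.039. IRS2, an adaptor that carries insulin and IGF1 receptor signals to PI3K, was at 2 and 1.8 CPM with vehicle and 2.6 and 2.5 CPM with EGF in BT474, and at 6.79 and 7.54 CPM with vehicle and 23.2 and 23.5 CPM with EGF in BT474R. The EGF libraries of BT474R stood apart from the other 6 (effect 1.70, difference 1.28, SE 0.26, adjusted p = 0.00262), and the BT474 effect of 0.42 was not called. The IRS2 call was lost without replicate 1 of S12_Con, at 1.19. IRS1 rose by 0.34 and 1.01 (difference 0.67, SE 0.12) and DEPTOR, an inhibitor of mTOR, had effects of -0.066 in BT474, not called, and 0.79 in BT474R (difference 0.85, SE 0.12). GAB2, a docking protein for PI3K, had a difference of 0.47, SE 0.12, a call lost in 6 of the 8 fits with a library left out. PIK3R1, the p85 alpha regulatory subunit of PI3K, was the lower member, with effects of 0.14 in BT474, not called, and -0.38 in BT474R (difference -0.52, SE 0.10).

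GATA3, ESR1 and TRPS1, regulators of the luminal state, fell in both lines and further in BT474R. Of 53 tested steroid receptors, luminal regulators and their targets, 8 were lower (15.1%, against 1.03% of all genes) and 1, IRS1, was higher. EGF lowered 12 of the 53 and raised 12 in BT474, and lowered 19 and raised 8 in BT474R. Over all genes it lowered 4.91% and raised 8.64% in BT474, and lowered 6.46% and raised 8.4% in BT474R. The difference was positive for 21 of the 53 and negative for 32, with a median of -0.094. Not all luminal markers fell with EGF. KRT8, KRT18, KRT19 and SPDEF were higher with EGF in both lines without overlap. SPDEF went from 362 and 378 to 412 and 409 CPM in BT474, and from 358 and 345 to 385 and 399 CPM in BT474R. FOXA1 went from 630 and 622 to 609 and 614 CPM in BT474, and from 576 and 611 to 535 and 551 CPM in BT474R. GATA3, the zinc finger factor that maintains luminal cells, was at 546 and 544 CPM with vehicle and 438 and 434 CPM with EGF in BT474, and at 49.7 and 42.4 CPM with vehicle and 12.5 and 14.3 CPM with EGF in BT474R. Every BT474R library lay far below every BT474 library, and within each line EGF was below vehicle with no overlap, at 0.8 times the vehicle level in BT474 and 0.291 times in BT474R (difference -1.46, SE 0.14, adjusted p = 1.28e-08). In CPM the fall of GATA3 was larger in BT474, since its level there was so much higher. ESR1, the estrogen receptor, was at 116 and 112 CPM with vehicle and 77.2 and 84.1 CPM with EGF in BT474, and at 102 and 91.1 CPM with vehicle and 39 and 42.2 CPM with EGF in BT474R. Its vehicle levels were close in the 2 lines, and with EGF it stood at 77.2 and 84.1 CPM in BT474 and at 39 and 42.2 CPM in BT474R (difference -0.75, SE 0.12, adjusted p = 0.000114).

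TRPS1, a GATA-type repressor of luminal cells, fell by 0.22 in BT474 and by 0.75 in BT474R (difference -0.53, SE 0.10). PRLR, the prolactin receptor, had effects of -0.055, not called, and -0.59 (difference -0.53, SE 0.089). IGFBP5, which binds insulin-like growth factors, fell by 0.38 and 0.89, and TFAP2A rose in BT474 by 0.28 and was not called in BT474R (-0.077). XBP1, a factor of the secretory pathway and of luminal cells, went in opposite directions, at 898 and 868 CPM with vehicle and 979.7 and 999 CPM with EGF in BT474, and at 1876 and 1888 CPM with vehicle and 1631 and 1662 CPM with EGF in BT474R. Its effects were 0.16 and -0.19, both called, with a difference of -0.36, SE 0.062, adjusted p = 0.000354. The 8 lower members were between 7 and 12 under the 10 other analyses and 6 or 7 with a library left out. All but IGFBP5 and TFAP2A kept their call in all 8 of those fits.

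Most genes of DNA replication rose with EGF in BT474, and 15 of them had a lower EGF effect in BT474R by the test. The effect was called upward for 57 of the 63 tested members in BT474 and for 21 in BT474R, against 8.64% and 8.4% of all genes. The median effects were 0.389 and 0.142, and no member was called down in either line. The difference was negative for 61 of the 63, with a median of -0.227. The test was passed by 15 members (23.8%, against 1.03% of all genes), all lower. These differences were small, between -0.26 and -0.45, and the count depended on the libraries and the analysis. It was 9 with DESeq2's size factors, between 4 and 27 over the 10 other analyses, and between 0 and 8 with a library left out, being 0 without replicate 2 of R12_Con and without replicate 2 of R12_EGF. A total of 3 members were called in all 10 other analyses. MCM3, a subunit of the helicase that unwinds DNA at replication origins, was at 160.0 and 161 CPM with vehicle and 216 and 219 CPM with EGF in BT474, and at 210.0 and 226 CPM with vehicle and 234 and 229 CPM with EGF in BT474R. Its EGF libraries in BT474 lay above the vehicle libraries by a log2 effect of 0.44, and in BT474R the same effect was 0.087 and was not called (difference -0.35, SE 0.086, adjusted p = 0.0176). DTL, which guides the ubiquitin ligase that removes the licensing factor CDT1, was at 34.9 and 31.9 CPM with vehicle and 56.1 and 54.9 CPM with EGF in BT474, and at 62.2 and 65 CPM with vehicle and 79.5 and 75.2 CPM with EGF in BT474R. DTL rose in both lines, by 0.73 and 0.28 (difference -0.45, SE 0.10, adjusted p = 0.00654). MCM4, MCM10, ORC1, EXO1, CHAF1A and CDC45 had differences of -0.32, -0.41, -0.45, -0.44, -0.34 and -0.35. PCNA, the sliding clamp of DNA polymerase, had a difference of -0.31, SE 0.086, which was -0.22 without replicate 2 of R12_Con, and DUT, which keeps uracil out of DNA, had a difference of -0.40, SE 0.10.

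**Figure D3:**
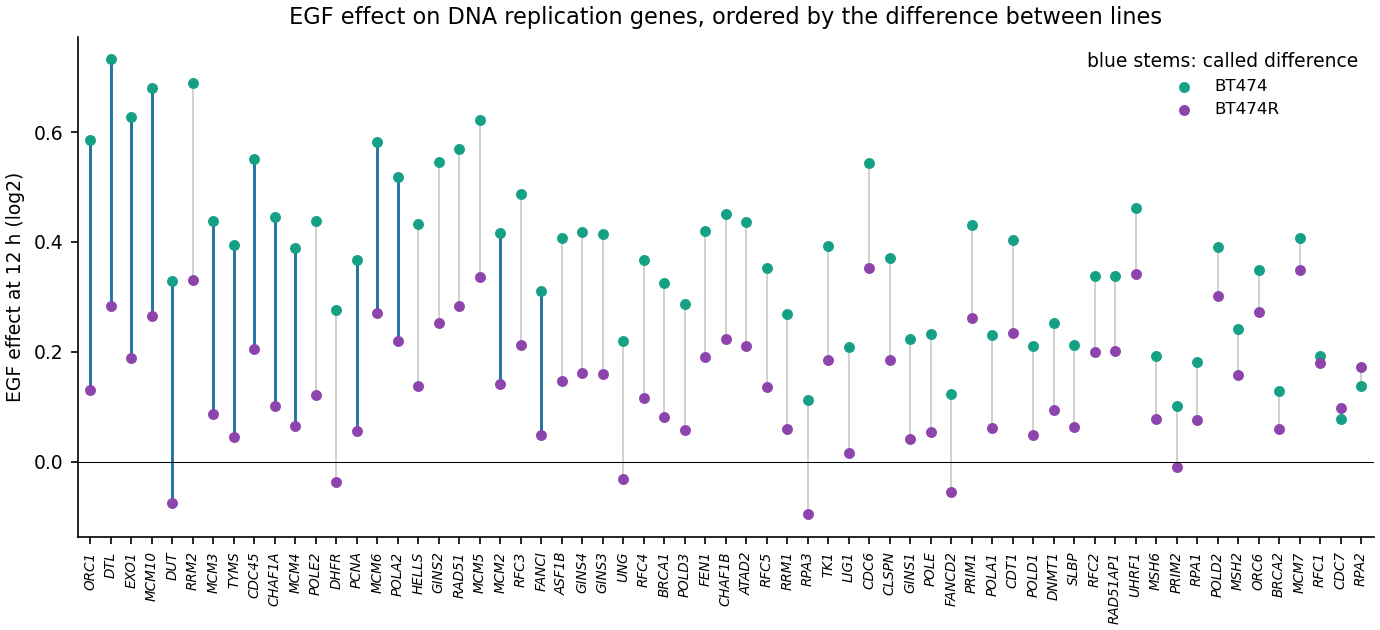
EGF effect at 12 h (log2 of EGF over vehicle) on the 63 tested DNA replication genes in BT474 (green) and BT474R (purple), ordered by the difference between the lines, with a blue stem for each of the 15 called differences. The BT474 point lies above the BT474R point for 61 of the 63 genes.

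Promoter stretches of MCM3 and DTL are shown because both were called and both hold the E2F element known from genes of this stage of the cell cycle. Both are from RefSeq (GRCh38.p14), MCM3 from chr6:52284843-52284942 on the minus strand, upstream of its start, and DTL from chr1:212035648-212035747 on the plus strand, the 100 bases before its start. Capitals mark the match.
MCM3: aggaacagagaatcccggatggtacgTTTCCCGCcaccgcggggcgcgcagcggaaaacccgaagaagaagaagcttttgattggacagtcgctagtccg
DTL: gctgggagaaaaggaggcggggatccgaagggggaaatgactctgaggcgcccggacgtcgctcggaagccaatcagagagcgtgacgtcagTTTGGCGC
The letters searched on both strands were TTTCCCGC, TTTCGCGC, TTTGCCGC and TTTGGCGC, and none of them was in the EGR1 stretch above. At least 1 of them stood in the 250 bases before the start of 3.4% of the 27305 genes with a promoter, of 18 of the 52 replication genes matched (34.6%), and of 7 of the 13 called members matched (53.8%), which were DTL, DUT, MCM3, MCM6, PCNA, POLA2 and TYMS.

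Of 34 G1 cyclins and CDK inhibitors, CCNE2 and GADD45A were lower (5.88%, against 1.03% of all genes) and RBL2 was higher (2.94%, against 0.929%). The differences were -0.35, -0.68 and 0.27, and each lost its call in 5 or more of the 8 fits with a library left out. Of 87 mitosis and kinetochore genes, 42 were called up with EGF in BT474 and 43 in BT474R, against 8.64% and 8.4% of all genes. For the difference, 2 were higher and 2 lower (2.3% each, against 0.929% and 1.03% of all genes). The higher ones were UBE2C, a ubiquitin-conjugating enzyme that acts with the anaphase-promoting complex, with a difference of 0.45, SE 0.089, and CCNB1, cyclin B1, with a difference of 0.29, SE 0.073, lost as a call in 6 of the 8 fits. CENPU and ZWINT, both of the kinetochore, were the lower ones, at -0.38 and -0.35.

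Several genes of the actin cytoskeleton rose in both lines and further in BT474R. Of 56 tested genes of the cytoskeleton and targets of YAP, 8 were higher (14.3%, against 0.929% of all genes) and none was lower. The difference was positive for 36 and negative for 20, with a median of 0.112. EGF raised 27 of the 56 in BT474 and 32 in BT474R, against 8.64% and 8.4% of all genes. ZYX, a focal adhesion protein, was at 64.7 and 68.6 CPM with vehicle and 87.2 and 90.9 CPM with EGF in BT474, and at 45.4 and 48.5 CPM with vehicle and 93.1 and 89.5 CPM with EGF in BT474R. EGF was above vehicle in both lines without overlap (effects 0.42 and 0.96, difference 0.54, SE 0.10, adjusted p = 0.00153). ACTG1, TPM4, MYH9, MYL12A and TMSB4X, an actin, a tropomyosin, chains of non-muscle myosin and a binder of free actin, rose in both lines with small differences of 0.27, 0.30, 0.23, 0.22 and 0.21. The calls of ACTG1 and TPM4 held whichever library was left out. Those of MYH9, MYL12A and TMSB4X were lost in most or all of these fits, with differences down to 0.20, 0.20 and 0.16. AMOTL1, which binds YAP, fell by 0.32 in BT474 and rose by 0.23 in BT474R. SERPINE2, a secreted protease inhibitor, had a difference of 1.05, SE 0.23, with an effect of -0.17 in BT474 that was not called and of 0.88 in BT474R, and its call was lost without either R12_EGF replicate 1 (0.84) or R12_Con replicate 1 (0.91). With a library left out, between 4 and 7 of the 56 were higher, the fewest without replicate 1 of R12_Con and without replicate 1 of R12_EGF.

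In adhesion and matrix genes, 4 of 64 were higher (6.25%, against 0.929% of all genes) and 1 was lower (1.56%, against 1.03%), with 31 positive and 33 negative differences and a median of -0.0073. ITGB4, the integrin chain of hemidesmosomes, was at 64.5 and 64.3 CPM with vehicle and 106 and 106 CPM with EGF in BT474, and at 164 and 159 CPM with vehicle and 479 and 452 CPM with EGF in BT474R. It rose in both lines without overlap, to 1.65 times the vehicle level in BT474 and 2.88 times in BT474R (difference 0.80, SE 0.077, adjusted p = 6.45e-09). L1CAM, a cell adhesion molecule of the immunoglobulin family, was at 2.38 and 2.76 CPM with vehicle and 6.87 and 6.72 CPM with EGF in BT474, and at 2.04 and 2.05 CPM with vehicle and 13 and 11 CPM with EGF in BT474R (difference 1.15, SE 0.26, adjusted p = 0.00916). VIM, the filament protein vimentin, had effects of 0.057, not called, and 0.71 (difference 0.66, SE 0.13), and LAMB1, a laminin chain, had a difference of 0.25. TNC, the matrix protein tenascin C, was the lower member, since it rose by 1.33 in BT474 and by 0.96 in BT474R (difference -0.37, SE 0.082). The L1CAM, LAMB1 and TNC calls were lost in 3, 6 and 4 of the 8 fits with a library left out. Of 57 keratins and squamous genes, 3 were higher (5.26%, against 0.929% of all genes), and the median difference was 0.211. EGF raised 19 of them in BT474 and 27 in BT474R, against 8.64% and 8.4% of all genes. KRT16, a keratin of activated squamous epithelium, was at 0.793 and 0.719 CPM with vehicle and 2.95 and 3.65 CPM with EGF in BT474, and at 1.24 and 1.64 CPM with vehicle and 17.4 and 16 CPM with EGF in BT474R. Its difference of 1.41, SE 0.39, adjusted p = 0.0451 was lost as a call without any 1 of the 8 libraries. S100A10, a calcium-binding partner of annexin A2, had a difference of 0.73, SE 0.082, with effects of 0.31 and 1.04. SOX9 had a difference of 0.58, SE 0.12, with a rise of 0.69 in BT474R and no call in BT474 (0.11), and lost its call without replicate 1 of R12_Con, at 0.50.

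Of 41 tested members of the TGF-beta and BMP pathways, TGFB3, BMP7 and BAMBI were lower (7.32%, against 1.03% of all genes) and TGIF1 was higher (2.44%, against 0.929%), while the median difference was 0.0445, with 24 positive and 17 negative. TGFB3 and BMP7 encode ligands. TGFB3 was at 132 and 129 CPM with vehicle and 171 and 176 CPM with EGF in BT474, and at 85.7 and 88.7 CPM with vehicle and 74.8 and 82.2 CPM with EGF in BT474R. EGF was above vehicle in BT474 and below it in BT474R, where the effect of -0.15 was not called (difference -0.57, SE 0.094, adjusted p = 0.000202). BMP7 rose by 0.86 and 0.39 (difference -0.47, SE 0.12), its rise in CPM being larger in BT474R, where it started higher, and its call was lost without any 1 of the 8 libraries. BAMBI, a decoy receptor, had effects of -0.013 in BT474, not called, and -0.41 in BT474R. TGIF1, a repressor of SMAD targets, had a difference of 0.36, and the BAMBI and TGIF1 calls were lost in 2 and 6 of the 8 fits with a library left out. In the list of 61 Wnt, Notch and Hedgehog genes, 1 was higher and 1 lower (1.64% each, near the 0.929% and 1.03% of all genes). The higher one was the Wnt receptor FZD8, at 19.2 and 21.7 CPM with vehicle and 22.3 and 21.5 CPM with EGF in BT474, and at 12.2 and 10.7 CPM with vehicle and 25.1 and 22.5 CPM with EGF in BT474R. Its EGF and vehicle libraries in BT474R did not overlap (difference 0.97, SE 0.13, adjusted p = 6.82e-06), while those in BT474 did. RNF43, which removes Wnt receptors, was lower at -0.29, SE 0.059, a call lost without replicate 1 of R12_EGF.

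Retinoic acid genes went both ways. RDH10, the enzyme of the first step from retinol to retinoic acid, was at 13.6 and 12.9 CPM with vehicle and 21.1 and 20.8 CPM with EGF in BT474, and at 85.3 and 83.6 CPM with vehicle and 240.2 and 246 CPM with EGF in BT474R, a rise to 1.59 times the vehicle level in BT474 and 2.88 times in BT474R (difference 0.86, SE 0.10, adjusted p = 2.46e-07). ALDH1A3, the enzyme of the next step, was at 2.59 and 2.52 CPM with vehicle and 8.41 and 9.7 CPM with EGF in BT474, and at 14.6 and 13.5 CPM with vehicle and 27.3 and 27.8 CPM with EGF in BT474R, and its rise was smaller in BT474R on the log2 scale (difference -0.85, SE 0.19, adjusted p = 0.00801) and larger there in CPM. CRABP2, a retinoic acid carrier, had a difference of 0.54, SE 0.14 and in CPM rose more in BT474. The calls of ALDH1A3 and CRABP2 were lost in 3 and 7 of the 8 fits with a library left out. These were 2 higher (7.69%, against 0.929% of all genes) and 1 lower (3.85%, against 1.03%) of 26 tested, with a median difference of 0.34 over the list.

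Of 41 tested genes of NF-kB and inflammatory cytokines, 4 were higher (9.76%, against 0.929% of all genes) and 1 was lower (2.44%, against 1.03%). CXCL12, a chemokine of stromal cells, was at 10.4 and 10.3 CPM with vehicle and 5.64 and 6.87 CPM with EGF in BT474, and at 9.36 and 9.07 CPM with vehicle and 10.4 and 9.3 CPM with EGF in BT474R. It fell in BT474 and did not change by the test in BT474R (difference 0.84, SE 0.18, adjusted p = 0.00458), and its call was lost without replicate 1 of S12_EGF and without replicate 1 of R12_EGF. TNFRSF21, a death receptor, rose in both lines, by 0.91 and 1.73 (difference 0.83, SE 0.13). OSMR, the oncostatin M receptor, had a difference of 0.58, lost as a call in 6 of the 8 fits, and IL17RB, an interleukin receptor, was lower at -0.80, SE 0.15, with a rise of 0.60 in BT474 and an effect of -0.20, not called, in BT474R. CXCL8, the neutrophil chemokine interleukin 8, was called at a few counts. It had 2 and 3 counts with vehicle and 2 and 0 with EGF in BT474, which allows no ratio, and 1 and 0 with vehicle and 22 and 19 with EGF in BT474R, a ratio of 45.4 with an exact 95% counting interval from 7.7 to 1840, and its call was lost in 7 of the 8 fits with a library left out. Of 43 apoptosis and survival genes, 2 were higher (4.65%, against 0.929% of all genes), and both encode activators of mitochondrial cell death of the BH3-only type. PMAIP1 (NOXA) was at 15.1 and 11.9 CPM with vehicle and 10.4 and 11.3 CPM with EGF in BT474, and at 4.79 and 5.39 CPM with vehicle and 8.95 and 8.04 CPM with EGF in BT474R, and it rose in BT474R and was not called in BT474 (difference 1.06, SE 0.21, adjusted p = 0.0017). BBC3 (PUMA) was called in neither line (-0.37 and 0.30) and had a difference of 0.67, SE 0.18, lost as a call in 7 of the 8 fits with a library left out.

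Of 49 genes of amino acid transport and the integrated stress response, 5 were lower (10.2%, against 1.03% of all genes) and 2 higher (4.08%, against 0.929%), with a median difference of -0.0653. SLC1A4, a transporter of neutral amino acids, rose in BT474 and not in BT474R by the test, with effects of 0.31 and -0.04 (difference -0.35, SE 0.066), and SLC3A2, the heavy chain of several amino acid transporters, had a difference of -0.24. SLC7A8, a light chain, had a difference of -0.42, XBP1 is given above, and HSPA5, the main chaperone of the endoplasmic reticulum, had a difference of -0.27. GLUL, glutamine synthetase, was higher at 69.4 and 67.6 CPM with vehicle and 63.1 and 68.1 CPM with EGF in BT474, and at 148 and 150.4 CPM with vehicle and 204 and 203 CPM with EGF in BT474R (difference 0.51, SE 0.10, adjusted p = 0.00256), as was SLC7A2, a transporter of cationic amino acids (0.36). CALR, a calcium-binding chaperone, fell in BT474R by 0.31 and was at 0.01 in BT474 (difference -0.32, SE 0.06), and HSPD1 of mitochondria had a difference of -0.23. ACSS1 and ACSL3, which activate acetate and fatty acids, were lower at -0.44 and -0.31. In the hypoxia and glycolysis list of 60, LDHB, a lactate dehydrogenase chain, was lower (-0.42, SE 0.089) and LOXL2 higher. Each made up 1.67% of that list, against 1.03% of all genes lower and 0.929% higher. With a library left out, the calls of SLC3A2, SLC7A8, HSPA5, SLC7A2 and HSPD1 were lost in 6, 2, 4, 3 and 7 of the 8 fits, that of GLUL without replicate 1 of S12_EGF and that of LDHB without replicate 1 of R12_EGF. None of the 52 nuclear genes of oxidative phosphorylation was called by edgeR or by DESeq2 (8 had an unadjusted p under 0.05), although the difference was negative for 50 of them, with a median of -0.0983, and up to 6 were called lower in the 10 other analyses. None was called among 41 metallothioneins and oxidative stress genes, 24 mitochondrial genome transcripts and 21 clock genes by either tool, while 10, 2 and 5 of them had an unadjusted p under 0.05. In the 10 other analyses, up to 1 member of each of these lists was called higher, and up to 4, 3 and 1 were called lower.

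Among mucins and secretory proteins (32 tested), CEACAM5, a surface glycoprotein, was higher at 0.43, SE 0.12, a call lost in 7 of the 8 fits with a library left out, at 0.29 without replicate 1 of S12_Con. CEACAM5 made up 3.12% of that list, against 0.929% of all genes. Of 59 genes of cAMP and G protein signalling, GPRC5A was higher (1.69%, against 0.929% of all genes). ADCY2, an adenylyl cyclase, and RAPGEF5, an activator of RAP proteins, were lower (3.39%, against 1.03% of all genes). ADCY2 was at 4.93 and 4.92 CPM with vehicle and 3.08 and 2.54 CPM with EGF in BT474, and at 10.5 and 9.04 CPM with vehicle and 2.75 and 2.8 CPM with EGF in BT474R and fell in both lines (difference -1.01, SE 0.21, adjusted p = 0.00427). RAPGEF5 rose by 1.10 and 0.58 (difference -0.52, SE 0.12), with the larger rise in CPM in BT474R, and the calls of ADCY2 and RAPGEF5 were lost in 1 and 3 of the 8 fits with a library left out. In the list of 74 ribosome biogenesis genes and MYC targets, which also holds MYC, MYC itself was the 1 called (1.35%, against 0.929% of all genes higher). The difference was negative for 58 of the 74, with a median of -0.0739.

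**Figure D4:**
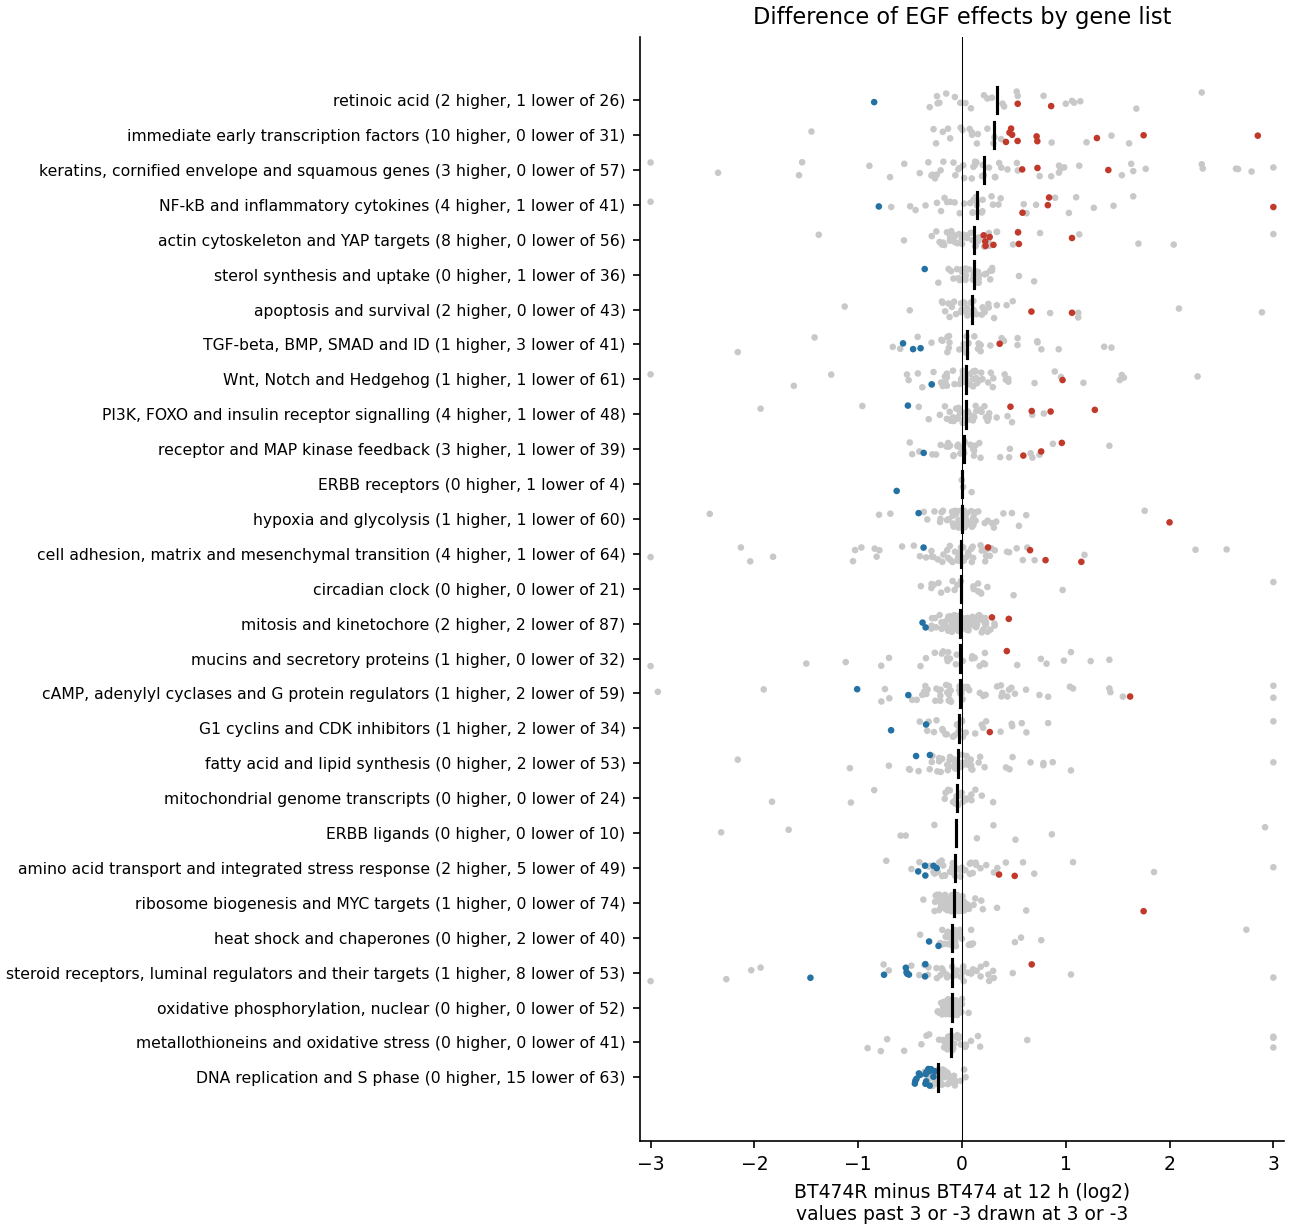
Difference of EGF effects at 12 h (BT474R minus BT474, log2) for each tested member of the 29 lists other than interferon, with called members in red (higher) or blue (lower), a black bar at the median of the list, and values beyond 3 drawn at the edge. Immediate early factors (10 higher, 0 lower of 31) and DNA replication genes (0 higher, 15 lower of 63) had the most called members in 1 direction.

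Rules on level and name left 153 higher and 246 lower genes outside the interferon list, and the genes with the largest differences at each end are described, whether or not they belong to another list. TNIK, a kinase of Wnt signalling, was at 5.07 and 5.55 CPM with vehicle and 11.8 and 12.3 CPM with EGF in BT474, and at 2.26 and 1.53 CPM with vehicle and 17.1 and 15.3 CPM with EGF in BT474R. The lines changed order, since the BT474R vehicle libraries were the lowest and its EGF libraries the highest of the 8 (difference 1.94, SE 0.30, adjusted p = 6.89e-05). LOXL2, an enzyme that crosslinks collagen, was at 1.07 and 1.24 CPM with vehicle and 1.36 and 1.3 CPM with EGF in BT474, and at 1.29 and 1.64 CPM with vehicle and 7.7 and 5.94 CPM with EGF in BT474R. The EGF libraries of BT474R stood apart from the other 6, with an effect of 2.21 against 0.21, not called, in BT474 (difference 2.00, SE 0.41, adjusted p = 0.00296). ARHGDIB, an inhibitor of small GTPases, was at 49 and 47.1 CPM with vehicle and 70.5 and 68.1 CPM with EGF in BT474, and at 1.11 and 1.74 CPM with vehicle and 7.15 and 8.13 CPM with EGF in BT474R. All BT474R libraries lay below all BT474 libraries, and the ratio of EGF to vehicle was 1.44 in BT474 and 5.19 in BT474R (difference 1.85, SE 0.18, adjusted p = 5.09e-09), while the rise in CPM was larger in BT474. GPRC5A, an orphan receptor induced by retinoic acid, was at 64.7 and 65 CPM with vehicle and 113 and 109 CPM with EGF in BT474, and at 4.61 and 5.29 CPM with vehicle and 27.2 and 25.4 CPM with EGF in BT474R, with the same order of the lines (difference 1.62, SE 0.16, adjusted p = 1.05e-08) and again the larger CPM rise in BT474. CEMIP, which breaks down hyaluronan, was at 3.07 and 3.6 CPM with vehicle and 4.14 and 3.36 CPM with EGF in BT474, and at 1.82 and 1.71 CPM with vehicle and 7.38 and 5.51 CPM with EGF in BT474R, with overlapping groups in BT474 and none in BT474R (difference 1.70, SE 0.36, adjusted p = 0.00416). TENM4, a teneurin of the cell surface, had a difference of 2.02, SE 0.39, and SLC51A, a chain of a bile acid and steroid transporter, one of 1.76, SE 0.40, calls that were lost without replicate 1 of R12_EGF for TENM4 and without replicate 1 of S12_Con or replicate 2 of S12_EGF for SLC51A. SIPA1, a RAP GTPase-activating protein, had a difference of 1.79, SE 0.48 from a fall in BT474, at 0.66 and 0.84 CPM with vehicle and 0.18 and 0.34 with EGF, and its call was lost without any 1 of the 8 libraries.

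**Figure D5:**
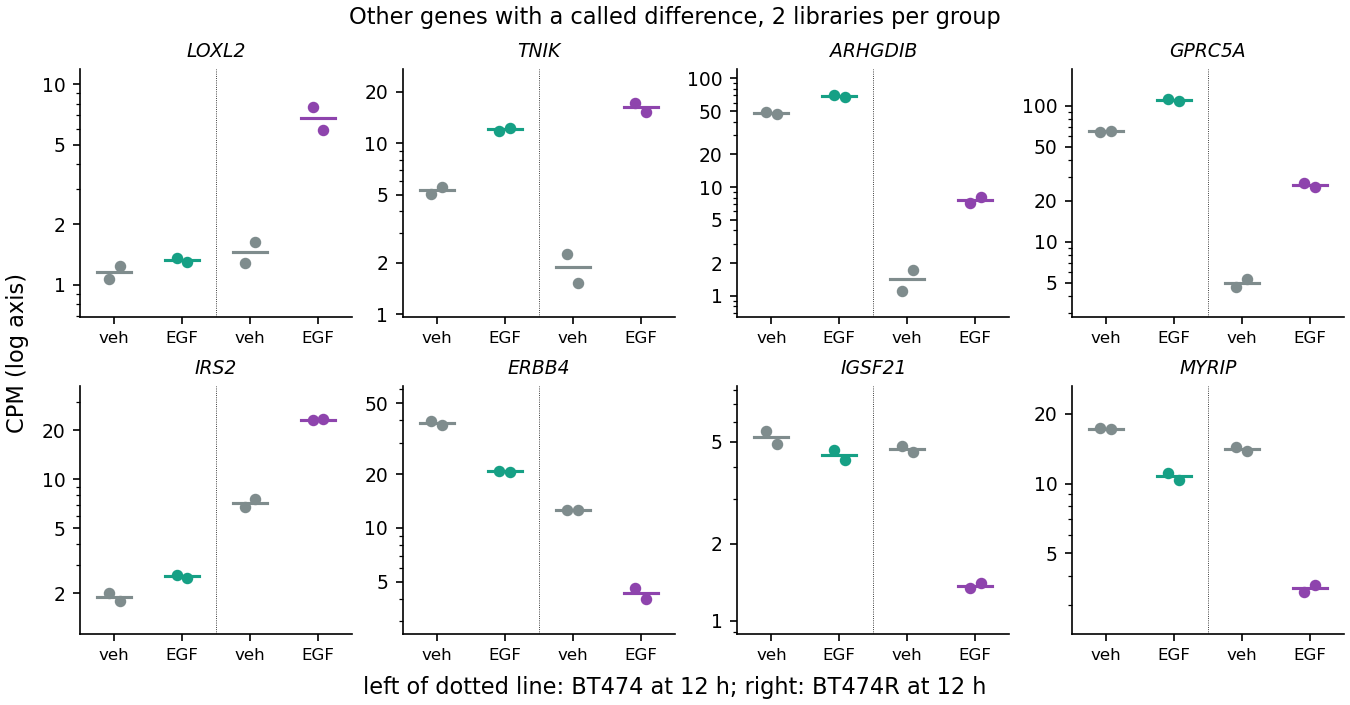
Level in CPM (log axis) at 12 h of 8 further genes with a called difference, with 1 point per library, a bar at the mean of the 2 libraries of a group, and vehicle (veh) and EGF in BT474 (left) and BT474R (right). TNIK, LOXL2 and IRS2 were highest in the EGF libraries of BT474R, whereas ERBB4, IGSF21 and MYRIP were lowest there.

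A further 2 of these genes, with higher fitted differences, rested on a few counts. ETV7, an ETS family repressor, had 1 and 1 counts with vehicle and 33 and 18 with EGF in BT474R, a ratio of 28.2 with an exact 95% counting interval from 7.42 to 239, against levels of 0.31 and 0.20 CPM with vehicle and 0.48 and 0.53 with EGF in BT474. HS3ST5, a sulfotransferase of heparan sulfate, had 1 and 1 counts with vehicle and 6 and 2 with EGF in BT474R (ratio 4.43, interval 0.884 to 42.8), and fell in BT474 from 3.28 and 3.64 to 1.23 and 1.3 CPM. Their fitted differences of 3.69 and 3.45 depend on the prior count of the fit, and their calls were lost in 7 and 5 of the 8 fits with a library left out.

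At the lower end, MYRIP, a linker of vesicles to actin, was at 17.3 and 17.2 CPM with vehicle and 11.1 and 10.4 CPM with EGF in BT474, and at 14.4 and 13.8 CPM with vehicle and 3.42 and 3.65 CPM with EGF in BT474R. It fell in both lines without overlap, and the EGF libraries of BT474R were the lowest of the 8 (difference -1.31, SE 0.16, adjusted p = 1.14e-06). IGSF21, a cell surface protein of the immunoglobulin family, was at 5.49 and 4.92 CPM with vehicle and 4.62 and 4.22 CPM with EGF in BT474, and at 4.83 and 4.57 CPM with vehicle and 1.33 and 1.4 CPM with EGF in BT474R, with EGF below vehicle in both lines, the fall in BT474 not being called (difference -1.54, SE 0.27, adjusted p = 0.000408). PRRT1B was at 5.07 and 5.43 CPM with vehicle and 6.47 and 5.28 CPM with EGF in BT474, and at 8.43 and 7.54 CPM with vehicle and 3.22 and 3.93 CPM with EGF in BT474R, with overlap in BT474 and none in BT474R (difference -1.33, SE 0.21, adjusted p = 0.00013). GABBR2, a GABA-B receptor chain, rose in BT474 by 1.36 and was at 0.087 in BT474R (difference -1.28, SE 0.29). RHBDL3, a rhomboid family member, was much higher in BT474R, where EGF took it from 12.4 and 13.5 to 5.18 and 4.07 CPM, and had a difference of -1.60, SE 0.44. CA2 (carbonic anhydrase), RIPOR2 (an inhibitor of a small GTPase) and CCDC177 had differences of -1.47, -1.33 and -1.21, each lost as a call in 5 or 6 of the 8 fits with a library left out, as were GABBR2 and RHBDL3 in 3 and 6. SLC25A48, of the mitochondrial carrier family, had 13 and 13 counts with vehicle and 3 and 2 with EGF in BT474R, a ratio of 4.7 (interval 1.77 to 15.7), and 9.49 and 8.35 against 11.3 and 10.1 CPM in BT474. LINC00578, a long non-coding RNA, had 9 and 11 counts with vehicle and 2 and 0 with EGF in BT474R (ratio 9.03, interval 2.19 to 79.7). The SLC25A48 and LINC00578 calls were lost in 3 and 8 of the 8 fits with a library left out.

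The EGF effect had opposite called directions in the 2 lines for 31 of the 484 genes, 16 up in BT474R and down in BT474 and 15 the reverse. Of the 6 with the largest effects in both lines, FOS is given above. NIBAN1, a protein of the cell stress response, was at 9.18 and 7.79 CPM with vehicle and 12.2 and 12.6 CPM with EGF in BT474, and at 38.4 and 38.3 CPM with vehicle and 28 and 28.6 CPM with EGF in BT474R, a rise in BT474 and a fall in BT474R without overlap in either (difference -0.98, SE 0.14, adjusted p = 1.53e-05). The other 4 belong to the interferon list. PARP14, an ADP-ribosyltransferase, was at 76.1 and 71.5 CPM with vehicle and 51.7 and 51.3 CPM with EGF in BT474, and at 12.1 and 11.7 CPM with vehicle and 38.5 and 30.8 CPM with EGF in BT474R (difference 2.07, SE 0.18, adjusted p = 6.3e-10), and PARP10, SP100 and HERC6 had differences of 3.52, 1.23 and 2.32, each with a fall in BT474 and a rise in BT474R.

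Within the interferon list as a whole, 47 of 175 tested members were higher (26.9%, against 0.929% of all genes) and 2 lower (1.14%, against 1.03%). The median difference was 0.487. The largest differences were in genes close to absent in BT474R vehicle. APOL6, an apolipoprotein L induced by interferon gamma, had 1 and 1 counts with vehicle and 417 and 309 with EGF in BT474R, a ratio of 402 with an exact 95% counting interval from 111 to 3320, while in BT474 it was at 1.34 and 0.80 CPM with vehicle and 0.53 and 0.77 with EGF. GBP1, a guanylate-binding protein, had no count with vehicle and 108 and 71 with EGF in BT474R, at least 66.1-fold higher against a limit of 3 counts over the group. For APOL1 that bound was at least 19.2-fold, and for BATF2 the ratio was 151 (interval 26.6 to 5990).

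The same difference was looked up in the 24 h libraries, which share no library with those at 12 h. There 989 genes were called (4.01%), 1.92% higher and 2.09% lower. Of the 182 genes outside the interferon list that were higher at 12 h, 170 (93.4%) had a positive difference at 24 h and 117 (64.3%) were called higher. Of the 253 lower genes, 230 (90.9%) had a negative difference and 143 (56.5%) were called lower, whereas over all genes tested the sign was shared by 59.6%. GATA3, ESR1, PRLR and TRPS1 were lower again, with 24 h differences of -1.52, -0.69, -0.55 and -0.52. Their list as a whole was not lower at 24 h, with 9 members called higher, 9 called lower and a median difference of 0.0011. At 12 h it had 1 higher and 8 lower. IGFBP5 was at -0.084 at 24 h and was not called. FOS, EGR1 and MYC were higher again, with 3.60, 2.31 and 1.14, and so were LOXL2, CEMIP, TNIK and IRS2, with 2.50, 3.56, 2.08 and 1.17. The DNA replication list did not carry over, having 0 members called at 24 h by edgeR or by DESeq2 (9 had an unadjusted p under 0.05) and a median difference of 0.0457. Of the 56 genes of the cytoskeleton and targets of YAP, 11 were called higher at 24 h and 0 lower, with a median difference of 0.0801. ZYX, TMSB4X, AMOTL1 and SERPINE2 were called higher again, with 0.47, 0.31, 0.65 and 1.58. ACTG1, MYH9, TPM4 and MYL12A had 24 h differences of 0.053, 0.07, 0.11 and 0.19 that were not called. Of the 484 genes, only UBE2C and CCNB1 were called in the opposite direction, being higher at 12 h and lower at 24 h by -0.40 and -0.47.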

How the data were processed

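Poly(A) RNA of the 40 samples was sequenced as paired reads. Per the labels and the study's methods, the authors trimmed reads with Trim Galore 0.6.6, aligned them to GRCh38.p13 and deposited counts per gene from featureCounts, neither normalized nor filtered. The annotation release, the strand setting and how multimapping reads were handled are not given in the sources used here. The table has 44584 names, of which 5078 repeat another name with a number added (2.96% of counts). These rows were tested but not named.

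All 40 libraries were fitted with 1 coefficient for each of 20 groups in edgeR 4.0.16 (R 4.3.3; TMM, glmQLFit, glmQLFTest), on 24641 genes detected (1 count or more) in 20 or more libraries. SE is the size of the log2 value over the square root of F. CPM use TMM-scaled totals. The alternatives were DESeq2 1.42.0, DESeq2's size factors, filterByExpr, no filter, only the 8 libraries compared, limma 3.58.1 with sample weights and a variance factor per line, 2 replicate blocks, thinning to 16794594 counts, summed copy rows, and leaving out each library in turn; a difference of CPM changes was added later. The method was tested on simulated data.

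The comparison, the 30 gene lists and the rule for named genes were chosen with earlier results of these data known. Named were the 12 highest and 12 lowest called genes outside the interferon list with at least 1 CPM in a group and 1 direction in all 8 leave-one-out fits, leaving out LOC names and copy rows; up to 4 called members per list with the largest difference; 6 genes with opposite called effects; and the 4 ERBB receptors. Further called members of a list were named after their values were seen. Some genes that met these rules are not reported here.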

Additional observations from a re-analysis of the deposited data

Results flagged for a closer look

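The EGF effect at 12 h was called in both lines with opposite signs for 6 genes of the naming rule, and the difference itself was called for each by edgeR's quasi-likelihood test. The difference (BT474R minus BT474, log2) was 2.85 for FOS, 3.52 for PARP10, 1.23 for SP100, 2.07 for PARP14, 2.32 for HERC6 and -0.983 for NIBAN1. FOS, PARP10, SP100, PARP14 and HERC6 fell in BT474 and rose in BT474R, and NIBAN1 rose in BT474 and fell in BT474R. All 6 kept their call with any 1 of the 8 libraries left out and in the 10 other analyses. The difference kept its sign at 24 h for all 6 and was called there for all but NIBAN1, at -0.33. PARP10 was low, with vehicle levels of 1.21 and 1.28 CPM in BT474 and 0.62 and 0.58 CPM in BT474R.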

How the results depend on the processing

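Leaving out a library leaves a group with 1 library, which is then assumed to vary like the others, and this lowered the number of calls in most fits. The number of genes called was between 258 and 325 for the difference at 12 h (484 with all libraries), between 221 and 286 for the same outside the interferon list (435), between 1660 and 2174 for EGF in BT474 (3337), between 2067 and 2529 for EGF in BT474R (3661) and between 618 and 1107 for the difference at 24 h (989). With only the 8 libraries compared, 1282 genes were called at 12 h, 1222 of them outside the interferon list, and 553 at 24 h, against a range of 363 to 606 at 12 h over the other 9 analyses. The share of higher genes, 47.3% of calls at 12 h, reached 62.2% without replicate 2 of R12_Con.

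In the groups compared at 12 h, samples with the same replicate number did not deviate together, with correlations of deviations between -0.0494 and 0.0691 over 15067 genes. These correlations cannot exclude that the numbers mark a pairing of cultures, which the labels do not give. The replicate block gave 521 genes and the block within line and time 606 at 12 h, 470 and 554 outside the interferon list, 3495 and 3630 for EGF in BT474, 3829 and 4004 for EGF in BT474R, and 1046 and 1138 at 24 h, and neither changed a call of the 99 named genes.

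On the CPM scale, the difference between the lines turned to -15.0 for ARHGDIB, -25.0 for GPRC5A, 76.4 for GATA3, 9.71 for ERBB4, 140.3 for DUSP4, 86.4 for BMP7, 6.995 for ALDH1A3, -3.73 for CRABP2 and 13.4 for RAPGEF5, all of which start from unlike levels. It was also 41.6 for EGFR and -5.79 for ERBB3, whose log2 differences near 0 were not called and changed sign. EGFR was at 0.0123 with DESeq2, 0.0129 with DESeq2's size factors, 0.00535 with filterByExpr, 0.0127 with no filter, 0.000284 with only the libraries compared, 0.00413 with the replicate block, 0.00389 with the block within line and time, 0.0112 after thinning and 0.0166 with copy rows summed. With a library left out, EGFR was between -0.12 and 0.15 and ERBB3 between -0.0151 and 0.062. Of the 99 named genes, DESeq2 lost the call of 9, thinning of 21, limma of 6, no filter of 5, summed copy rows of 4, and DESeq2's size factors of 2; the causes were not tested.

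Genes with a few counts are limited by depth: a group at 3 counts or fewer gives a bound or a wide counting interval, not a fold.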

Other observations

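Genes of mitosis and the kinetochore showed little difference between the lines at 12 h and a broad one at 24 h. Of the 87 tested, 2 were higher and 2 lower at 12 h (2.3% each, against 0.929% and 1.03% of all genes), with a median difference of -0.0167. At 24 h, 31 were lower and 0 higher (2.09% of all genes were lower there), with a median of -0.253. PLK1, a kinase of mitotic entry, went from 0.12 at 12 h to -0.62 at 24 h, AURKA, a kinase of the spindle poles, from 0.052 to -0.54, KIF20A, a motor of cell division, from 0.16 to -0.60, and CDC20, an activator of the anaphase-promoting complex, from -0.072 to -0.47. None of these 12 h values was called, and these 4 genes were chosen after their values were seen. The change between the time points was not tested.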
